A study of Mus musculus with 16 samples.

Results

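The effect of high glucose in the absence of ox-LDL (oxidised low-density lipoprotein, the lipid load used to make foam cells) was read from 8 of the 16 libraries of the series: the 4 labelled H_C and the 4 labelled L_C. All 15871 rows of the deposited count table entered, and 13527 of them passed the filter on low counts and were tested. The cells were peritoneal macrophages of 8-week-old wild-type C57BL/6 mice given 6% soluble starch into the peritoneal cavity, a method that recruits macrophages for harvest, and were kept in DMEM with 10% FBS. H_C cells had glucose at 33 mmol/L for 48 h, and L_C cells had 27.5 mM mannitol for 48 h, which stands as the osmotic control in low glucose. The other groups were L_O, 4 libraries with ox-LDL (50 mg/ml by the label) for 48 h and no mannitol named on their treatment label, and H_O, 4 libraries with the same glucose and ox-LDL together. By its title, the study looked for targets in atherosclerosis in a high-glucose setting. Whether replicates came from separate animals, pools or dishes is not stated, so each p-value measures variation among these particular libraries alone, and that variation could be technical.

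Glucose enters macrophages mainly through the transporter GLUT1 and feeds glycolysis, and glucose-derived sugar phosphates activate the transcription factors MondoA and ChREBP, whose best known target is Txnip. Dissolved glucose and mannitol both draw water out of cells, and cells meet a rise in tonicity through the transcription factor NFAT5, which induces transporters that bring in organic osmolytes such as betaine, myo-inositol and taurine. Macrophages also carry an interferon programme: interferon-gamma induces guanylate-binding proteins, immunity-related GTPases and the MHC class II transactivator CIITA, and type I interferons induce genes such as Ifit1 and Rsad2.

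The 8 libraries held 33369823 to 41712885 counts, so depth differed by little. Macrophage identity was clear in all of them: Lyz2 lay between 13258 and 15062 CPM (counts scaled to the library total and its TMM factor), Csf1r between 764 and 900, and Adgre1, which encodes F4/80, between 359 and 530. L_C replicate 4 stood apart. There the mitochondrial genes held 3.71% of all counts, while the remaining L_C libraries ranged from 1.48% to 1.95% and H_C from 1.62% to 2.04%. Ribosomal protein genes held 1.48% there, while the remaining L_C libraries ranged from 1.90% to 1.96% and H_C from 1.90% to 2.05%. With genes in 5 groups by exon length, its median difference from the rest of L_C was -0.12 (log2 CPM) in the shortest group and 0.08 in the longest. The macrophage gene Cd68 was at 3053 CPM in it and at 1581 to 1648 CPM in L_C replicates 1 to 3. List counts are therefore also given without this library where they moved, as are part of the single genes. A value given once comes from all libraries and may also move without this one. H_C replicate 3 carried more fibroblast and mesothelial transcripts, with 13 such markers summing to 224 CPM against 43.1 to 51.8 CPM in the other H_C libraries and 65.0 to 91.3 CPM in L_C.

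**Figure D1:**
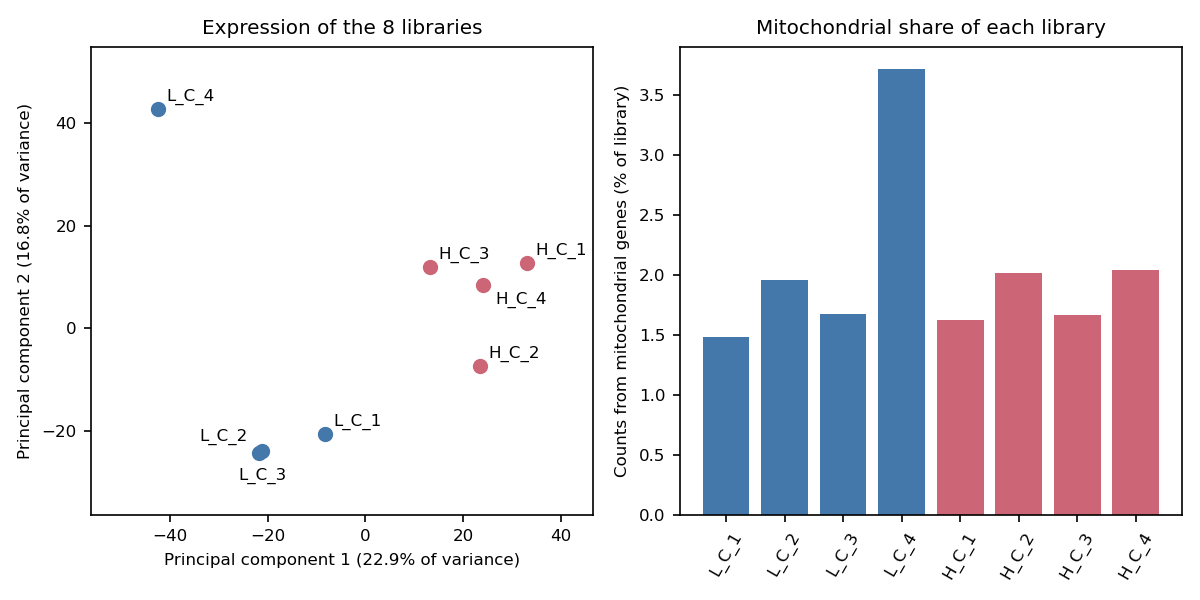
Left, the 8 libraries on the first 2 principal components of log2 CPM (axes give the share of variance). Right, counts from mitochondrial genes as a percentage of each library (bars, 1 per library). L_C (blue) and H_C (red) separate on the first component, and L_C_4 lies apart on the second and has the tallest bar, at 3.71%.

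The first principal component of the 8 libraries, with 22.9% of the variance, put all L_C libraries between -42.6 and -8.35 and all H_C libraries between 13.2 and 33.1. In H_C against L_C, 679 genes rose (5.02% of those tested) and 1049 fell (7.75%) in edgeR's quasi-likelihood test at an adjusted p under 0.05. Mannitol is named for L_C and not for H_C, so an effect of mannitol itself cannot be told apart from one of glucose. Most changes were small: 37 of the rises and 106 of the falls reached 2-fold, and the median log2 fold change over all tested genes was -0.0045. In 597 of the raised and 934 of the lowered genes, the 4 H_C libraries lay wholly outside the range of the 4 L_C libraries, a pattern found in 7.58% (higher) and 9.82% (lower) of all tested genes. Without L_C replicate 4, 922 genes rose (6.71% of 13734) and 1265 fell (9.21%). The 2 fits shared 1524 calls, none of them with opposite signs, which was 88.2% of the calls with that library and 69.8% of those without it. The excess of falls over rises depended on scaling. Of the calls, 39.3% were rises with TMM factors and 52.4% with library totals alone (927 higher, 841 lower), a setting that moved the median of all genes from -0.0045 to 0.0306. The number of calls also depended on which libraries set the spread: fitted on the 8 libraries alone, 340 rose and 574 fell, and on the same libraries less L_C replicate 4, a setting chosen after seeing the data, 906 rose and 1123 fell.

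**Figure D2:**
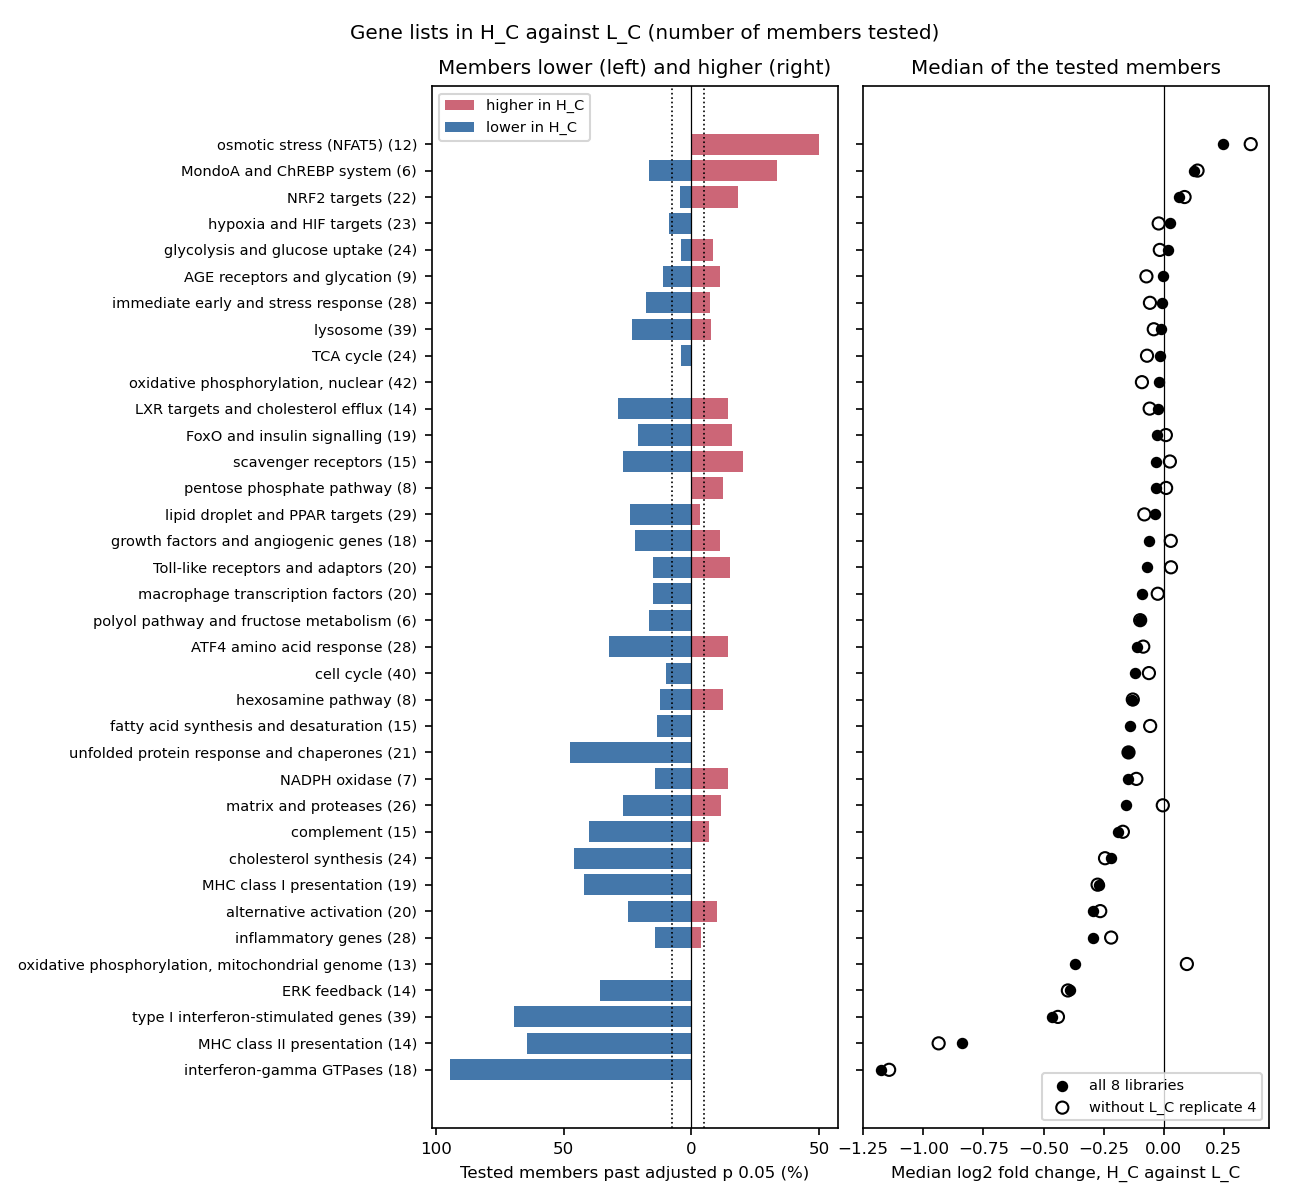
Left, the share (%) of tested members of 36 gene lists that passed an adjusted p of 0.05 as higher (red, to the right) or lower (blue, to the left) in H_C than in L_C, with dotted lines at the shares over all tested genes (5.02% and 7.75%). Right, the median log2 fold change of each list's tested members with all 8 libraries (filled) and without L_C replicate 4 (open); osmotic stress genes lie at the top and interferon and MHC class II genes at the bottom, and the mitochondrial-genome list is the one whose median moves most between the points.

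Among genes averaging at least 2 on the log2 CPM scale, the largest called rise was in the betaine and GABA transporter Slc6a12 (BGT1), a textbook NFAT5 target (mm10, chromosome 6, 121343076 to 121365775, plus strand, protein-coding). Its level was 1.56, 0.691, 0.621 and 1.26 CPM in L_C replicates 1 to 4 and 14.2, 8.44, 11.6 and 11.9 CPM in H_C. The lowest H_C library was above the highest L_C library by a wide margin. The fold change was 11.2, or 3.48 ± 0.26 on the log2 scale (SE, n = 4 per group, edgeR adjusted p = 4.51e-07), and 3.60 without L_C replicate 4. These levels are low, from 21 to 51 counts per L_C library. The RefSeq promoter window of this gene, from 250 bases before to 50 after its RefSeq start (GRCm38.p6, chr6:121342324-121342623, plus strand), is printed because it holds a match to the tonicity enhancer TonE, the site NFAT5 binds, which is in capitals. The start RefSeq uses lies upstream of the gene start given above.

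Slc6a12: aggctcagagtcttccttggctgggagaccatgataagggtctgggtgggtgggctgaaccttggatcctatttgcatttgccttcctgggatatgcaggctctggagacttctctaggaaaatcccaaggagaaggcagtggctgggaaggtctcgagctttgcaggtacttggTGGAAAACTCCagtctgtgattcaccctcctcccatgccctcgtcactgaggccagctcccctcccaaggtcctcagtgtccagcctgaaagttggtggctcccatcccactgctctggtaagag

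This match began 75 bases before the start, as TGGAAAACTCC. A TonE match on either strand was found in 5.743% of the promoters of all 27025 genes in the RefSeq table and in 1 of the 10 tested osmotic stress genes that could be matched to it, Slc6a12 itself. A match is a run of letters and does not show binding.

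Of the 12 tested members of the osmotic stress list, 6 rose and none fell (7 and none without L_C replicate 4). Their median log2 fold change was 0.25, and 0.36 without that library, against -0.0045 over all genes with every library in. Over all tested genes, 5.02% rose and 7.75% fell, and the list counts below are to be read beside these shares. Slc5a3, the sodium and myo-inositol cotransporter, was at 6.74, 7.08, 4.02 and 5.51 CPM in L_C and 18.8, 12.1, 15.4 and 15.6 CPM in H_C. The groups did not overlap, and it rose by 1.41 ± 0.16 on the log2 scale (adjusted p = 1.57e-05). Its exons overlap those of Mrps6 by 1.46% of their length, and Mrps6 was at 5.25 ± 1.27 CPM (SD, n = 4) in L_C and 5.86 ± 0.932 CPM in H_C (adjusted p = 0.584). The amino acid transporter Slc38a2 (SNAT2), an NFAT5 and ATF4 target, was at 153, 138, 131 and 147 CPM in L_C and 248, 236, 246 and 262 CPM in H_C, a rise of 0.80 ± 0.05 (adjusted p = 4.08e-08) with no overlap. The taurine transporter Slc6a6, already abundant at 1518 ± 120 CPM in L_C, was at 1794 ± 42.5 CPM in H_C and rose by 0.24 (adjusted p = 0.00275). The kinase gene Sgk1 rose by 0.22 (adjusted p = 0.0078).

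S100a4, a calcium-binding protein gene, completed the 6 rises. It was at 14.4, 16.6, 18.3 and 4.68 CPM in L_C and 42.0, 30.8, 33.4 and 37.5 CPM in H_C. The low value of L_C replicate 4 enlarged the difference, which was 1.42 ± 0.25 with that library and 1.12 ± 0.12 without it (adjusted p = 0.00107 and 3.65e-06). Of its distinct 50-base words, 47.4% also occur in the overlapping gene model Gm42674, so part of this signal may be shared with it. Nfat5 itself was at 80.4, 88.8, 81.7 and 130 CPM in L_C and 105, 107, 106 and 107 CPM in H_C. The single high value in L_C replicate 4 spanned the H_C range, and the call turned on it: 0.16 with the library (adjusted p = 0.397) and 0.34 without it (adjusted p = 0.00014). Akr1b3, the aldose reductase that makes sorbitol from glucose and is both an osmotic and a polyol pathway gene, was at 79.8 ± 4.24 CPM in L_C and 80.5 ± 0.814 CPM in H_C (0.01, adjusted p = 0.904).

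**Figure D3:**
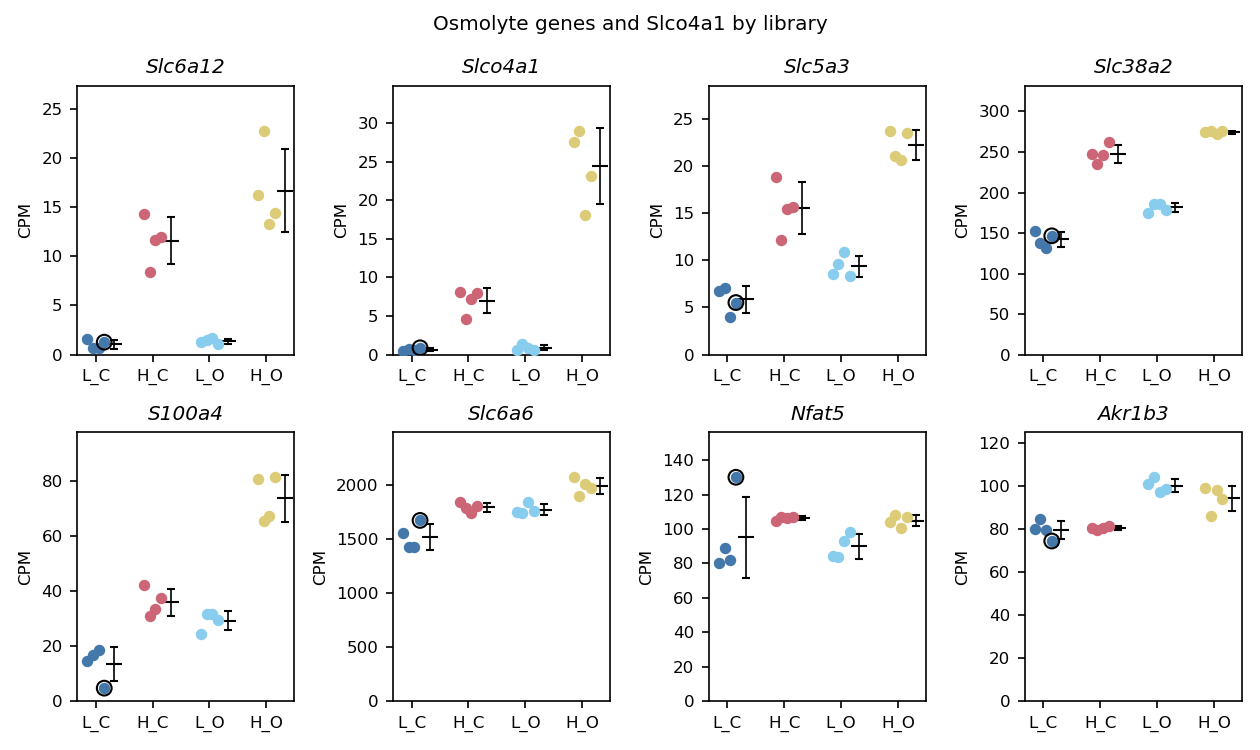
CPM of 8 genes in each library (points) of the 4 groups, with mean and SD (n = 4) beside them and L_C replicate 4 circled. Slc6a12, Slco4a1, Slc5a3 and Slc38a2 are higher in H_C than in L_C and in H_O than in L_O without overlap, and Akr1b3 overlaps between H_C and L_C.

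The second gene to rise about as far as Slc6a12 was Slco4a1, an organic anion transporter that carries thyroid hormones among other substrates. It was at 0.429, 0.719, 0.592 and 0.875 CPM in L_C and 8.08, 4.61, 7.17 and 7.98 CPM in H_C, a 10.5-fold difference (3.39 ± 0.26, adjusted p = 4.57e-07) without overlap. After these, rises were smaller. Prokr1, a prokineticin receptor, went from 16.3 ± 4.16 to 29.5 ± 2.36 CPM (0.86 ± 0.14, adjusted p = 0.000443), and Cdo1, the cysteine dioxygenase on the route to taurine, from 3.90 ± 0.926 to 7.22 ± 0.432 CPM (0.89 ± 0.15, adjusted p = 0.000656). Id3, an inhibitor of helix-loop-helix factors, rose by 0.90 with L_C replicate 4 and 0.67 without it, and was not called in the fit of the 8 libraries alone (adjusted p = 0.0676). The protein kinase gene Pkn3 rose by 1.06, Spef1 by 0.97, Prss46 by 0.95 and Knstrn by 0.91. Lrrc14b rose by 1.59, but its exons lie wholly within those of Ccdc127 and 98.3% of its 50-base words occur there, so its counts cannot be told apart from that gene.

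Among genes called with and without L_C replicate 4, averaging at least 2 on the log2 CPM scale and free of overlap, the largest falls included many genes that interferon-gamma induces. Of 18 tested members of a list of interferon-gamma GTPases and their regulators, 17 fell and none rose, with a median log2 fold change of -1.17 (-1.14 without L_C replicate 4, 17 lower). In 16 of them all H_C libraries lay below all L_C libraries. The promoters below are printed because they hold the interferon-stimulated response element (ISRE), searched on both strands as GAAA, any 2 bases and GAAA, in capitals; for Gbp2 the whole RefSeq window is given (GRCm38.p6, chr3:142620413-142620712, plus strand), and for the others the match with its flanks (Gbp3 chr3:142559974-142560039, Gbp5 chr3:142496744-142496803, Gbp7 chr3:142530258-142530317, plus strand, and Tgtp1 chr11:48992289-48992348, minus strand).
Gbp2: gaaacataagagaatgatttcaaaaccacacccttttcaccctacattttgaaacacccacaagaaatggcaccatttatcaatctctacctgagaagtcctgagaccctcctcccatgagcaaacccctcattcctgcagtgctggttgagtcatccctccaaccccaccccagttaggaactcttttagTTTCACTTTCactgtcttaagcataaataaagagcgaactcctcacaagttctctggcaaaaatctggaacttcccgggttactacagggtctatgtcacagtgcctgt
Gbp3: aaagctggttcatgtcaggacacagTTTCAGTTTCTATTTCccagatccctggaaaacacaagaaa
Gbp5: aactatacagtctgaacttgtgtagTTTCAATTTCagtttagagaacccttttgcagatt
Gbp7: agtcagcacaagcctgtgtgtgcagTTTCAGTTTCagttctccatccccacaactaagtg
Tgtp1: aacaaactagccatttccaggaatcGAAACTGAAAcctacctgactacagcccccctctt

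The element was present in 10 of the 12 members of this list that matched the RefSeq table, against 3.993% of the promoters of all genes. Socs1, which was not called, was among the 10. The list was drawn up from interferon genes, so this share describes the list and not the falls. The related gamma-activated site, searched as TTC, any 3 bases and GAA on both strands, was in 8 of the 12, against 9.554% of all. Those without the response element in the window were Irf1 and Irf8. In Gbp3 the capitals cover 2 matches that overlap.

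Among the guanylate-binding proteins, large GTPases that attack vacuoles of intracellular pathogens, Gbp2 (mm10, chromosome 3, 142620602 to 142638008, plus strand) was at 256, 435, 324 and 321 CPM in L_C and 83.6, 83.0, 114 and 90.6 CPM in H_C. Every H_C library was below every L_C library, and L_C replicate 2 was the highest. The level fell to 0.278 of that in L_C (-1.85 ± 0.25, adjusted p = 0.000111). Gbp4, on chromosome 5, was at 10.9, 36.5, 23.9 and 19.3 CPM in L_C and 3.96, 3.56, 4.79 and 3.28 CPM in H_C, which made it 5.80-fold lower (-2.54 ± 0.46, adjusted p = 0.00113). Gbp8 fell by 1.83, Gbp5 by 1.60, Gbp7 by 1.38, Gbp9 by 1.22, Gbp3 by 1.08 and Gbp6 by 0.98 on the log2 scale. Of their 50-base words, 2.03% in Gbp2, 7.78% in Gbp4 and 18.1% in Gbp8 occur in other genes, so a part of the counts of Gbp8 may be shared.

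The immunity-related GTPases, smaller relatives that act on the same vacuoles, moved with them. Iigp1 was at 62.8, 126, 90.9 and 85.9 CPM in L_C and 14.2, 15, 22.2 and 16.8 CPM in H_C, 5.35-fold lower (-2.42 ± 0.41, adjusted p = 0.000664). The groups were far apart, with L_C replicate 2 again the highest. Tgtp1 and Tgtp2 fell by 1.88 and 1.76, and since 79.4% and 85.8% of their 50-base words occur in each other, their counts may be shared; the list counts include both. Igtp, Irgm1 and Irgm2 fell by 0.73, 0.92 and 0.84. Of the transcription factors on the list, Irf1 fell by 0.87 (adjusted p = 0.0014) and Irf8, which macrophages express without interferon, by 0.26 (adjusted p = 0.015). Socs1, the feedback inhibitor of the receptor kinases, was the member that did not pass (-0.26, adjusted p = 0.68).

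Further genes among the largest falls stood outside that list. Il18bp, a secreted trap for interleukin-18 that interferon-gamma induces, was at 73.3, 96.6, 79.0 and 127 CPM in L_C and 24.3, 26.4, 30.5 and 27.8 CPM in H_C (-1.78 ± 0.25, adjusted p = 0.000124). Il12rb1, a chain of the interleukin-12 and interleukin-23 receptors, went from 15.6 ± 2.91 to 5.00 ± 1.43 CPM (-1.64 ± 0.28, adjusted p = 0.000735). Rnase6, an antimicrobial ribonuclease, fell by 1.43 and Ksr2, a scaffold of the Raf, MEK and ERK cascade, by 1.52. Ly6a fell by 1.36 with an adjusted p of 0.0499, and lost its call under 13 of 19 other settings.

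Of 39 type I interferon-stimulated genes, 27 fell and none rose (median -0.46, and 30 fell without L_C replicate 4). The response element was in 16 of the 28 members matched to RefSeq promoters, Isg15 and Ifitm3 included, against 3.993% of all genes. It is shown for 3 of them that fell (Ifit1 chr19:34640760-34640838 and Ifit3 chr19:34583348-34583441, plus strand, and Rsad2 chr12:26456538-26456597, minus strand).
Ifit1: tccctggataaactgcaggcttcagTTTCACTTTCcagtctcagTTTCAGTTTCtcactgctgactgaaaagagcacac
Ifit3: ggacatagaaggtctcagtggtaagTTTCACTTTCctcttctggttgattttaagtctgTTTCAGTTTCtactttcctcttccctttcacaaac
Rsad2: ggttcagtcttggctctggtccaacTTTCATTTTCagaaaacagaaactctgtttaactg

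Rsad2, which encodes the antiviral enzyme viperin, was at 88.5, 110, 91.9 and 82.9 CPM in L_C and 34.9, 43.3, 41.3 and 46.5 CPM in H_C. It fell without overlap by 1.17 ± 0.10 (adjusted p = 2.09e-06). Ifit1 and Ifit3, which bind viral RNA, fell by 1.17 and 1.33, and Ifit3 shares 51.2% of its words with its copy Ifit3b. Rtp4 fell by 1.40, Mx1 by 1.71, Ifi44 by 1.58, Zbp1 by 1.16, Irf7 by 0.70 and Irf9 by 0.44. Members with no call included the ubiquitin-like Isg15 (-0.41, adjusted p = 0.19), Usp18 (0.00, adjusted p = 1.00), Oas2 (-0.22, adjusted p = 0.44) and Ifitm3 (-0.20, adjusted p = 0.17). Several of the best known members were thus without a call.

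**Figure D4:**
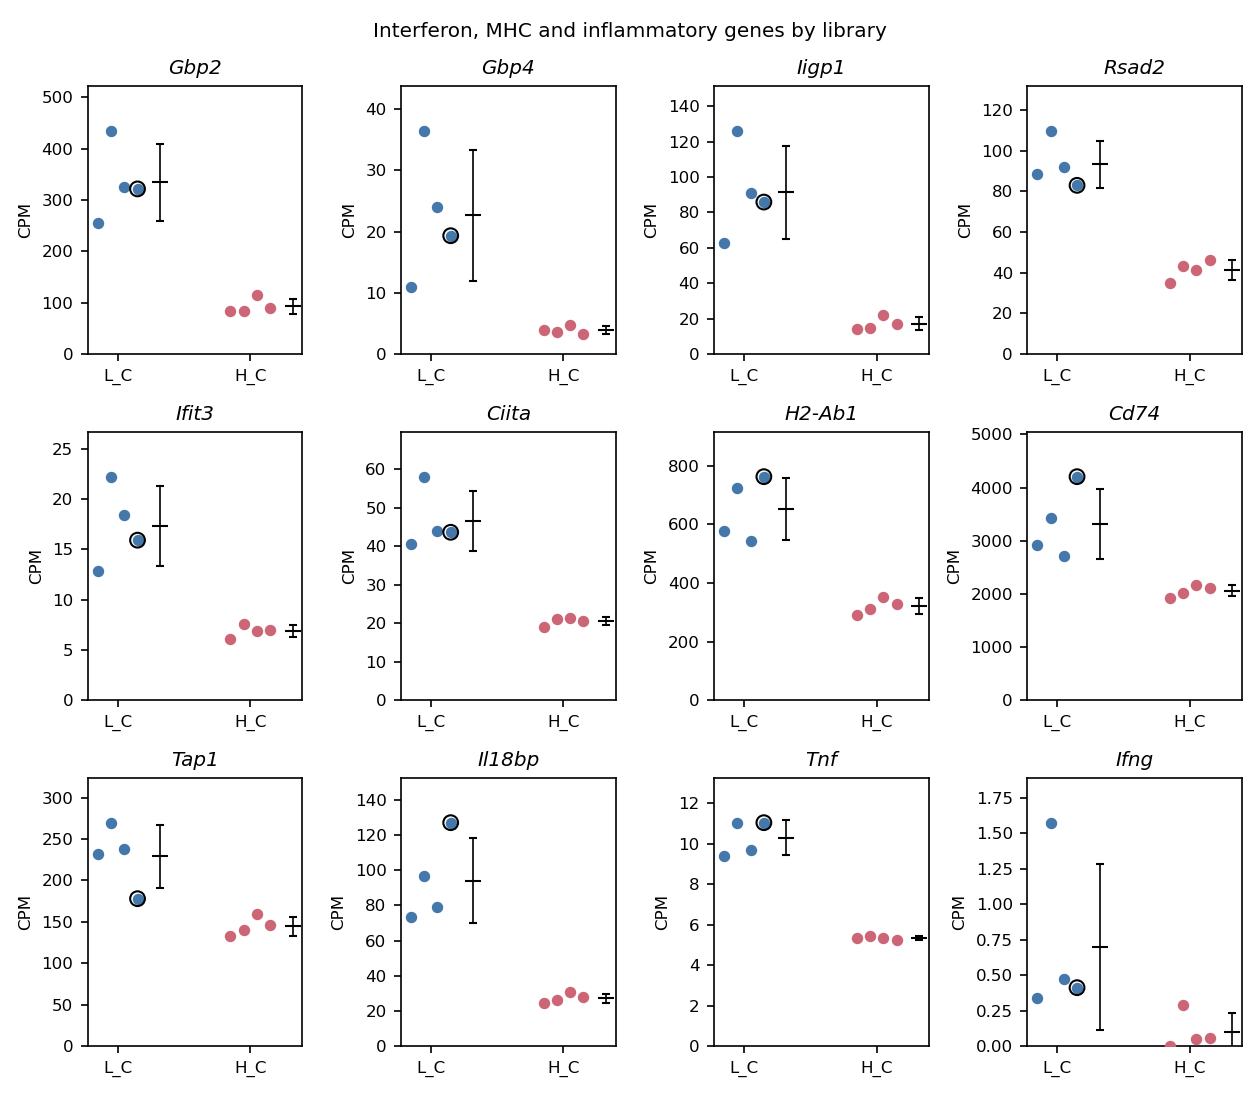
CPM of 12 genes in each L_C (blue, replicate 4 circled) and H_C (red) library, with mean and SD (n = 4) beside the points. In all 12 panels every H_C point lies below every L_C point; Ifng, at the lower right, rests on few counts.

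Ifng transcripts themselves were near the detection limit, with 11, 57, 16 and 16 counts in L_C and 0, 10, 2 and 2 counts in H_C. Each H_C library had fewer than any L_C library, but the difference did not pass edgeR's test (-2.77, adjusted p = 0.124, and -2.95, adjusted p = 0.114, without L_C replicate 4); it passed with limma-voom (adjusted p = 0.0484). L_C replicate 2, with most Ifng counts, also had the highest Gbp2, Gbp4, Iigp1 and Ciita of its group, while H2-Ab1, Cd74 and Il18bp were highest in L_C replicate 4. Of 13 T and NK cell markers, 11 were in the table, and their summed level was 1088 to 1226 CPM in L_C and 1083 to 1160 CPM in H_C. Nearly all of that was Il7r (1074 to 1213 CPM). The defining T cell gene Cd3e was at 0.674, 1.13, 1.18 and 1.49 CPM in L_C and 0.488, 0.321, 0.614 and 0.464 CPM in H_C, a call with L_C replicate 4 (-1.24, adjusted p = 0.0400) and not without it (-1.07, adjusted p = 0.129). In all, the call was lost under 10 of 18 other settings, among them leaving out L_C replicate 2 or 3 or H_C replicate 1, 2 or 4. The part of lymphocytes in the interferon result was not tested, and in bulk RNA fewer cells of a type and less RNA per cell cannot be told apart.

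MHC class II molecules present extracellular antigen to CD4 T cells. Of 14 tested genes of this route, 9 fell and none rose (median -0.84, and -0.94 without L_C replicate 4), while their summed level overlapped between the groups (16103 to 18559 CPM in L_C and 15441 to 16225 CPM in H_C). Most of that sum was the protease gene Ctss, at a mean of 11527 CPM in L_C and 12522 CPM in H_C. The transactivator Ciita was at 40.7, 58.0, 43.9 and 43.6 CPM in L_C and 19.0, 21.2, 21.3 and 20.5 CPM in H_C (-1.18 ± 0.23, adjusted p = 0.0025). Its H_C values were tightly grouped and all below L_C. H2-Ab1, a chain of the class II molecule itself, was at 579, 724, 544 and 763 CPM in L_C and 289, 310, 353 and 327 CPM in H_C (-1.03 ± 0.20, adjusted p = 0.00258). The invariant chain Cd74, the most abundant of the named genes here, went from 3318 ± 663 to 2057 ± 107 CPM (-0.69 ± 0.16, adjusted p = 0.00668, and -0.56 without L_C replicate 4). The peptide editor genes H2-DMa and H2-DMb1 fell by 1.01 and 0.74, and the costimulatory gene Cd86 by 0.79. Cd40, Cd80 and Ctss did not pass (adjusted p = 0.25, 0.059 and 0.19).

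Of 19 MHC class I genes, 8 fell and none rose (12 without L_C replicate 4), by less than in class II (median -0.27). Tap1, a subunit of the peptide pump into the endoplasmic reticulum, was at 232, 270, 238 and 178 CPM in L_C and 133, 141, 159 and 146 CPM in H_C (-0.66 ± 0.16, adjusted p = 0.00849). The loading factors Tapbp and Tapbpl fell by 0.48 and 0.70.

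Inflammatory genes moved less uniformly. Of 28 tested, 4 fell and 1 rose (3 and 1 without L_C replicate 4), against 7.75% and 5.02% of all tested genes. Tnf was at 9.40, 11.0, 9.71 and 11.0 CPM in L_C and 5.34, 5.46, 5.33 and 5.22 CPM in H_C, so its level dropped to 0.518 of that in L_C (-0.95 ± 0.14, adjusted p = 0.000197). The groups were well apart and H_C was tight. Il1a fell by 0.58 and by 0.45 without L_C replicate 4, Nlrp3, the inflammasome sensor, by 0.55, and the scavenger receptor Marco by 0.48. The T cell chemokine Ccl5 rose from 21.9 ± 3.76 to 34.4 ± 3.11 CPM (0.65 ± 0.13, adjusted p = 0.00261). Il1b had 0 to 18 counts per library, and a difference was not detectable at that depth (adjusted p = 0.506). The interferon-induced chemokines Cxcl9 and Cxcl10 had fold changes of -1.83 and -1.42 without a call (adjusted p = 0.14 and 0.16).

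Of 6 tested genes of the MondoA and ChREBP system, 2 rose and 1 fell (2 and 2 without L_C replicate 4). Txnip, which restrains glucose uptake, was at 156, 170, 180 and 154 CPM in L_C and 190, 198, 191 and 187 CPM in H_C, without overlap (0.21 ± 0.05, adjusted p = 0.00888, and 0.05335 in the fit of the 8 libraries alone). Its relative Arrdc4 rose by 0.32 (adjusted p = 0.0307), a call lost under 6 other settings, while Arrdc3, of the same arrestin family, fell from 22.7 ± 3.42 to 12.5 ± 1.42 CPM (-0.86 ± 0.14, adjusted p = 0.000632). The glucose transporter Slc2a1 was at 46.2 ± 3.64 CPM in L_C and 47.3 ± 1.79 CPM in H_C (0.03 ± 0.06, adjusted p = 0.777). Of 24 genes of glycolysis and glucose uptake, 2 rose and 1 fell (2 and 4 without L_C replicate 4), against 5.02% and 7.75% of all tested genes: Pkm, pyruvate kinase, rose from 949 ± 51.7 to 1175 ± 38.4 CPM (0.31 ± 0.04, adjusted p = 0.000126), the enolase Eno2 rose by 0.48, and Pfkfb3, which makes the activator of phosphofructokinase, fell by 0.17, a call lost under 8 other settings. In the hexosamine pathway, which feeds protein O-GlcNAc modification, the entry enzyme Gfpt1 fell by 0.42 ± 0.06 (adjusted p = 0.000273) and the transferase Ogt rose by 0.25 ± 0.04 (adjusted p = 0.000589). Of 22 NRF2 targets, 4 rose and 1 fell (5 and 2 without L_C replicate 4), beside the same shares of 5.02% and 7.75%. Glutathione reductase Gsr rose by 0.36 and thioredoxin reductase Txnrd1 by 0.25, while Blvrb, biliverdin reductase, fell by 0.38, 1 of 2 falls without L_C replicate 4.

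Lipid genes bear on foam cells, and several changed in these cells, which were given no ox-LDL. Of 24 genes of cholesterol synthesis, 11 fell and none rose (median -0.22, and 10 fell without L_C replicate 4). Cyp51, the sterol demethylase of the pathway, was at 78.3, 78.3, 91.6 and 98.4 CPM in L_C and 54.3, 62, 64.8 and 63.3 CPM in H_C (-0.50 ± 0.07, adjusted p = 0.000128). The H_C values were all below L_C. Sqle, the squalene epoxidase, fell by 0.46, and Srebf2, the factor that drives the pathway, by 0.25.

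Genes of cholesterol export went in opposite directions. Abca1, the pump that loads cholesterol onto apolipoprotein A-I, was at 154, 159, 184 and 186 CPM in L_C and 109, 110, 124 and 113 CPM in H_C (-0.59 ± 0.06, adjusted p = 1.32e-05). Apoe, the secreted lipid carrier, rose from 6069 ± 268 to 8110 ± 313 CPM (0.42 ± 0.04, adjusted p = 6.62e-06). Both differences were without overlap. Abcg1 fell by 0.15 and Scd2, a desaturase, by 0.61, so of 14 LXR-related genes 4 fell and 2 rose. The second rise was Apoc2 (0.81), which shares 78.3% of its 50-base words with the gene model Gm44805.

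Scavenger receptors take up modified lipoproteins, and of 15 tested 4 fell and 3 rose (3 and 3 without L_C replicate 4). Msr1, the class A receptor, was at 314, 351, 361 and 390 CPM in L_C and 217, 237, 243 and 235 CPM in H_C (-0.60 ± 0.06, adjusted p = 3.9e-06). Cd36 was at 1778 ± 155 CPM in L_C and 1541 ± 42.6 CPM in H_C (-0.21, adjusted p = 0.0224), a smaller fall that lost its call under 5 other settings. Cd5l, a secreted macrophage protein, fell by 0.88 with 1 overlapping pair of libraries, and without L_C replicate 4 by 1.03. Stab1, at 68.5, 76.2, 72.7 and 68.3 CPM in L_C and 94.8, 100, 109 and 101 CPM in H_C, rose by 0.50 ± 0.06 (adjusted p = 1.57e-05), and Colec12 rose by 0.46. Of 29 genes of lipid droplets and PPAR targets, 7 fell and 1 rose (6 and 1 without L_C replicate 4). Lpl, lipoprotein lipase, was at 933, 950, 1420 and 822 CPM in L_C and 537, 595, 519 and 573 CPM in H_C (-0.89 ± 0.14, adjusted p = 0.000465), and the monoglyceride lipase Mgll fell by 0.54. The droplet coat gene Plin2 had a fold change of 0.05 (adjusted p = 0.66).

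Of 21 genes of the unfolded protein response and its chaperones, which fold proteins in the endoplasmic reticulum, 10 fell and none rose (median -0.15). Without L_C replicate 4, 12 fell. Hsp90b1 was at 589, 629, 603 and 673 CPM in L_C and 479, 484, 519 and 507 CPM in H_C (-0.33 ± 0.04, adjusted p = 0.000106), with Calr down by 0.35, Manf by 0.42 and Hspa5 by 0.28. The ATF4 amino acid response was split, with 9 of 28 genes lower and 4 higher. Wars, the tryptophan tRNA synthetase that interferon-gamma also induces, fell by 0.51, and Psat1 and Asns, enzymes of serine and asparagine synthesis, by 0.65 and 0.47, while Slc38a2 and the cystine transporter Slc7a11 (0.29) rose.

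Of 26 genes of matrix and proteases 3 rose and 7 fell (4 and 6 without L_C replicate 4, where the median moved from -0.16 to -0.0037). Of 18 growth factor and angiogenic genes 2 rose and 4 fell (3 and 4 without that library). The shares over all tested genes were 5.02% and 7.75%. Plau, urokinase, was at 310, 355, 438 and 244 CPM in L_C and 147, 157, 159 and 152 CPM in H_C (-1.13 ± 0.11, adjusted p = 5.7e-06), and its receptor Plaur fell by 0.40. The urokinase values of H_C lay in a narrow band below all of L_C. Etv5 and Ccnd1, targets of ERK signalling, fell by 0.98 and 1.00, and Myc by 0.83. Of the 14 ERK feedback genes 5 fell and none rose (6 lower without L_C replicate 4). Vegfa, the endothelial growth factor, fell by 0.63 ± 0.09 (adjusted p = 0.000109) and Cdkn1a, the cell cycle inhibitor p21, by 0.67. Rises were seen in Htra1, a secreted protease, from 12.4 ± 1.41 to 21.5 ± 0.517 CPM (0.80 ± 0.10, adjusted p = 6.71e-05), in Mmp19 (0.40), in the bone-resorbing cathepsin Ctsk (0.78) and in Gas6. Gas6, the bridging ligand between apoptotic cells and MERTK, was at 61.2, 61.5, 60.9 and 70.5 CPM in L_C and 108, 112, 105 and 110 CPM in H_C (0.77 ± 0.05, adjusted p = 1.29e-07).

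Markers of the macrophages themselves did not move as a block. Of 11 markers, 4 fell and 2 rose. Cd14, the lipopolysaccharide co-receptor, was at 78.2, 76.6, 77.6 and 69.1 CPM in L_C and 135, 117, 130 and 123 CPM in H_C (0.74 ± 0.07, adjusted p = 3.37e-06). Fcgr1, the high-affinity IgG receptor and an interferon-gamma target, fell by 0.76 ± 0.11, Itgam by 0.36 and Adgre1 by 0.37. Itgam shares 66.3% of its words with the gene model Gm49368. The complement subunits C1qa, C1qb and C1qc fell by 0.51, 0.52 and 0.46, and properdin Cfp by 0.47. Of 11 tested genes that mark monocytes and small peritoneal macrophages, 4 fell, with Clec12a at -0.56, Itgax at -0.36 and Ccr2 at -0.80, the last a call lost without L_C replicate 1, L_C replicate 2 or H_C replicate 1. None rose, and 10 of the 11 had fold changes below 0 (median -0.48). Their list summed to 1284 to 1322 CPM in L_C and 985 to 1024 CPM in H_C, with Itgax the most abundant. Whether the share of these cells differed was not tested. Of 16 tested markers of large peritoneal macrophages, 3 fell (2 without L_C replicate 4) and none rose, and 6 had fold changes above 0. Among the falls was Timd4, which was at 2.04 ± 0.438 CPM in L_C and fell by 1.39 (adjusted p = 0.0127). B cell markers summed to 3.22 to 4.97 CPM in L_C and 2.73 to 3.35 CPM in H_C, and dendritic cell markers to 4.84 to 8.21 and 3.51 to 5.89 CPM, with no call among 5 tested in either list. Their part in the MHC class II result was not tested.

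Large metabolic and cell cycle lists differed in how many members were called. Over all tested genes, 5.02% rose and 7.75% fell (6.71% and 9.21% without L_C replicate 4). None of 42 nuclear genes of oxidative phosphorylation passed (median -0.0179), and without L_C replicate 4 1 rose and 3 fell. Of 24 genes of the citric acid cycle 1 fell, and 5 without that library, a share above that of all tested genes in that fit. None of the 13 protein genes of the mitochondrial genome passed, and their median turned from -0.37 to 0.10 when L_C replicate 4, the library with the high mitochondrial share, was left out, with 1 then lower. Of 40 cell cycle genes 4 fell, and 5 without that library, in both fits a share not below that of all tested genes.

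Other genes were called in 1 of the 2 fits alone: 204 with L_C replicate 4 and 659 without it. Among the latter were Obp1a and Mucl2, secretory genes of exocrine glands. Obp1a was at 8.91, 76.1, 28.5 and 9.91 CPM in L_C and 1.43, 8.29, 7.86 and 8.15 CPM in H_C, and Mucl2 peaked in the same library at 56.4 CPM. Scgb2b2, a secretoglobin named after its values were seen, had the same profile (27.6 CPM in L_C replicate 2), was called in the fit of all libraries (adjusted p = 0.029) and lost its call under 7 of 19 other settings, among them leaving out L_C replicate 2 (adjusted p = 0.169) and each of H_C replicates 1, 3 and 4. Zc3h11a, also called without L_C replicate 4 alone, ranged from 2.27 to 51.8 CPM within L_C, and 65.2% of its words are shared with another gene. Flt1, a VEGF receptor, is an example of a call made with that library alone (-0.78, adjusted p = 0.0447, and -0.76, adjusted p = 0.0598, without it).

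High glucose was also compared in ox-LDL-treated cells, H_O against L_O, which shares no library with H_C against L_C. Mannitol is named on the label of L_C and not on that of L_O, so whether L_O was matched to H_O for osmolarity is not stated. There 367 genes rose (2.71%) and 459 fell (3.39%). Of the genes raised without ox-LDL, 210 were also raised with it (30.9% of the one list, 57.2% of the other), and of those lowered 309 (29.5% and 67.3%); 3 genes were called in opposite directions. The fold change had the same sign in 644 of the 679 rises and 950 of the 1049 falls. Of the 12 osmotic stress genes, 6 rose here too, with a median of 0.40. Slc6a12 was at 1.30, 1.44, 1.68 and 1.06 CPM in L_O and 16.3, 22.8, 13.2 and 14.4 CPM in H_O (3.60 ± 0.26, adjusted p = 1.9e-07), and Slco4a1, which is not on that list, at 0.605, 1.31, 0.869 and 0.653 CPM in L_O and 27.6, 29.0, 18 and 23.2 CPM in H_O (4.82 ± 0.26, adjusted p = 6.99e-09). In both genes the ox-LDL groups were as cleanly apart as the others.

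The interferon genes differed in level between the settings. Gbp2 was at 96.0, 53.2, 46.6 and 38.9 CPM in L_O and 29.6, 62.2, 38.4 and 33.7 CPM in H_O, so the groups overlapped (-0.52 ± 0.25, adjusted p = 0.272), and both lay below the 256 to 435 CPM of L_C. H2-Ab1 was at 209, 184, 151 and 132 CPM in L_O and 136, 294, 182 and 129 CPM in H_O, also overlapping. The medians were -0.36 over the 18 interferon-gamma genes (2 fell) and 0.0194 over the 14 MHC class II genes (none fell, 1 rose), against -1.17 and -0.84 without ox-LDL. Ifng had 0, 0, 2 and 0 counts in L_O and 0, 13, 0 and 0 in H_O, and the H_O library with 13 was the one with the highest Gbp2 and H2-Ab1 of its group. In L_O the highest values of both were in replicate 1, which had 0 Ifng counts, and its Gbp2 of 96.0 CPM was above every H_O library. A link between Ifng counts and these genes was not tested.

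A direct test of the difference between the contrasts called 2 genes (0.00739% of those tested in each direction), although 1161 had an unadjusted p under 0.05. Ccr1, a chemokine receptor, fell without ox-LDL, from 74.6, 75.2, 85.6 and 87.3 CPM in L_C to 45.0, 45.9, 48.6 and 45.8 CPM in H_C, and was at 117 ± 11.2 CPM in L_O and 106 ± 7.50 CPM in H_O (difference 0.65 ± 0.10, adjusted p = 0.0381). Gas6 rose in both, by 0.77 without and 0.31 with ox-LDL (difference -0.46 ± 0.07, adjusted p = 0.0381). Each of these calls was lost under 14 of 25 other settings, limma-voom and the replicate block among them. Since L_O has no mannitol on its label, ox-LDL and the lack of mannitol cannot be told apart in this difference. Without L_C replicate 4 the test called 53 genes, 41 with a higher and 12 with a lower log2 fold change for glucose under ox-LDL (0.299% and 0.0874%). Among them were 2 of 18 interferon-gamma genes, 3 of 39 type I interferon-stimulated genes, 2 of 14 MHC class II genes and none of 19 MHC class I genes. Examples were Gbp3 (0.92, adjusted p = 0.0384), Ifit1 (1.07, adjusted p = 0.045), Rsad2 (0.73, adjusted p = 0.0384) and Ciita (1.57, adjusted p = 0.045). With all libraries these 4 did not pass (adjusted p = 0.0832, 0.0774, 0.112 and 0.105), and Gbp2, Iigp1 and H2-Ab1 passed in neither fit, so for them a difference between the contrasts is not shown.

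**Figure D5:**
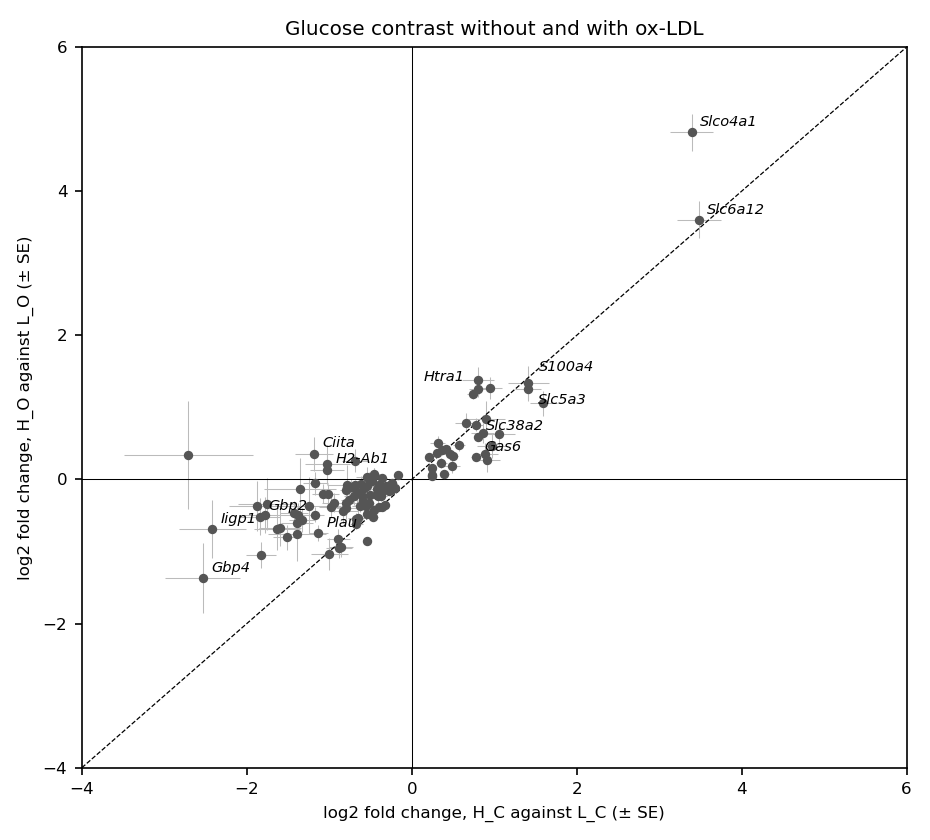
Log2 fold change (± SE) of 120 named genes called in H_C against L_C (horizontal) and in H_O against L_O (vertical), each point a gene, with the dashed line where both are equal. Slc6a12 and Slco4a1 lie at the upper right in both contrasts, and Gbp2, Iigp1, Ciita and H2-Ab1 lie to the left and above the line; the genes were chosen by their horizontal values.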

How the data were processed

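Gene counts of 16 RNA-seq libraries (4 per group) were analysed as deposited: whole-number counts per gene in 1 table. Per the submitters' processing notes, HISAT2, DESeq2 and mm10 were used; the counter, the annotation and the use of strand are not given in the sources used here, so a gene and an overlapping or antisense neighbour may share counts. Unannotated entries made up 1594 of the 15871 rows and stayed in.

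Counts of all 16 libraries were fitted with edgeR 4.0.16 in R 4.3.3 (filterByExpr, TMM factors, 1 mean per group, quasi-likelihood F-test with 12 residual degrees of freedom, Benjamini-Hochberg adjustment over 13527 genes, threshold 0.05, two-sided). Every adjusted p and every SE comes from this fit unless another is named. CPM use TMM factors. The fit was also run on counts simulated with known changes and without a deviant library, so that run says nothing about L_C replicate 4. Alternatives were other scalings and filters, DESeq2 1.42.0, limma 3.58.1 (voom, with and without quality weights), a replicate block, the 8 compared libraries alone and each library left out.

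Named genes were the 14 largest rises and falls called with and without L_C replicate 4 (average log2 CPM of at least 2, no overlap between groups, informative symbol), the 4 largest per direction called in 1 of those fits alone, up to 4 per list by adjusted p, genes called for the difference between contrasts, and a fixed set (Txnip, Arrdc4, Slc2a1, Akr1b3, Slc5a3, Slc6a6, Slco4a1, Tnf, Il1b, Cd36, Abca1 and Arg1). Ifng, Nfat5, Mrps6, Cd74, H2-Ab1, Scgb2b2 and further list members that illustrate a count were named after their values were seen. The comparison, the lists and the rule were chosen with earlier results of these data known. Lists are described by counts and medians, without a set test. Gene positions and shared sequence come from GENCODE for mm10, where a word is any run of 50 bases in a gene's exons, and promoters from RefSeq (GRCm38.p6). Shares of words found in other genes and not given above include Pkm 25.77%, Mmp19 24.68%, Etv5 24.54%, Tapbp 23.18%, H2-DMb1 22.65% and Ccnd1 21.58%. Part of the counts of these genes may be shared too. Some genes are not reported here.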

Additional observations from a re-analysis of the deposited data

Results flagged for a closer look

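Among 270 groups of 4 values checked (named genes and library shares, within L_C and within H_C), 13 had 1 sample far from the other 3 by Dixon's rule at 95%, and chance flags about 1 in 20 groups. Of these, 6 were values of L_C replicate 4, 2 of other L_C libraries and 5 of H_C libraries. In L_C replicate 4, the ribosomal protein share was 1.48% against 1.90% to 1.96%, Nfat5 was at 130 CPM against 80.4 to 88.8, and Ucp2, a mitochondrial carrier gene, was at 618 CPM against 425 to 435. Hspa5 was at 558 CPM there against 654 to 660, Gas6 at 70.5 CPM against 60.9 to 61.5, and Serpinb2 at 20.1 CPM against 6.06 to 7.99. Serpinb2, which encodes plasminogen activator inhibitor 2, fell by 1.02 with that library and by 0.48 without it, and lost its call under 5 other settings.

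In L_C replicate 2, Ifng was at 1.58 CPM against 0.337 to 0.474. In L_C replicate 1, Flt1 was at 7.66 CPM against 9.48 to 9.65. In H_C replicate 1, Lpcat3, a phospholipid acyltransferase gene, was at 30.5 CPM against 33.8 to 34.1, Obp1a at 1.43 CPM against 7.86 to 8.29 and Mucl2 at 1.89 CPM against 6.25 to 6.84. In H_C replicate 3, Lrrc14b was at 11.8 CPM against 17.9 to 19.1 and Tlr3 at 15.6 CPM against 13.8 to 14.1.

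By edgeR's test of the difference itself, H_O against L_O and H_C against L_C differed in Ccr1 (0.65, adjusted p = 0.0381) and Gas6 (-0.46, adjusted p = 0.0381), and each call was lost under 14 of 25 other settings.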

How the results depend on the processing

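Of 122 called results of named genes (120 of H_C against L_C and 2 differences between contrasts), 103 kept their direction and call under every alternative run, 19 lost the call under at least 1 (6 of them only where the compared libraries set the spread alone) and none reversed. The calls of H_C against L_C moved by over 1.5 times under 1 setting, where the compared libraries were fitted alone (340 higher, 574 lower). DESeq2 gave 869 higher and 1242 lower, no filter on low counts 623 and 1009, and leaving out each library 463 to 922 higher and 789 to 1265 lower, with L_C replicate 4 at the top of both ranges. For H_O against L_O, the compared libraries alone gave 718 and 901, voom with quality weights gave 790 and 1056, and leaving out 1 library gave 240 to 296 higher and 286 to 360 lower, with the fewest without L_O replicates 1 (240 and 286) and 4 (247 and 302). The difference between the contrasts (edgeR, 1 gene in each direction) changed with the tool and with single libraries: 76 higher and 15 lower with DESeq2, 0 and 0 with limma-voom, 60 and 15 with voom and quality weights, and 0 to 41 and 0 to 12 when 1 library was left out (41 and 12 without L_C replicate 4, 18 and 3 without L_C replicate 1, 17 and 2 without L_O replicate 1, 2 and 1 without H_C replicate 3, and 0 without any of the other 12). The uncalled Akr1b3 had a fold change of -0.0195 with voom and quality weights, -0.0187 to 0.0440 when 1 library was left out and -0.00985 on the compared libraries without L_C replicate 4, a setting chosen after seeing the data; Slc2a1 had -0.0124, -0.0208 to 0.0614 and -0.0120. The cause of these shifts was not tested. Same-numbered L_C and H_C libraries did not deviate together (r = 0.0230, 0.0120, -0.0538 and 0.0132), so the numbers were not read as pairs. A replicate block gave 654 higher and 978 lower. For the difference it gave 0 and 0, against 1 and 1 in edgeR without the block, where 1161 genes had an unadjusted p under 0.05. Depth limits genes of few counts, such as Ifng and Il1b.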

Other observations

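Targets of FoxO factors, which insulin signalling holds down, were split in H_C against L_C. Of 19 tested, 3 rose and 4 fell (4 and 3 without L_C replicate 4). The shares over all tested genes were 5.02% and 7.75%. Klhl24 was at 158, 151, 137 and 116 CPM in L_C and 208, 206, 210 and 215 CPM in H_C (0.57 ± 0.07, adjusted p = 6.97e-05), and the ubiquitin ligase gene Fbxo32 rose by 0.37. Sesn1, a sestrin that restrains mTORC1, was at 68.9, 61.3, 67.7 and 57.9 CPM in L_C and 41.0, 44.5, 37.4 and 37.6 CPM in H_C (-0.67 ± 0.08, adjusted p = 2.05e-05). Both genes with values per library were free of overlap between the groups. Of 39 lysosomal genes 3 rose and 9 fell (7 and 12 without L_C replicate 4), with cathepsin C, Ctsc, falling by 0.59 ± 0.07. Among Toll-like receptors and adaptors, 3 of 20 rose and 3 fell (5 and 3 without that library). Over all tested genes the shares without that library were 6.71% and 9.21%. Tlr9 fell by 0.55 with L_C replicate 4 and by 0.36 without it.

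Genes tied to alternative activation were also mixed, with 2 of 20 higher and 5 lower, against 5.02% and 7.75% of all tested genes. Without L_C replicate 4, 2 were higher and 4 lower. Tgm2, transglutaminase 2, was at 304, 332, 324 and 332 CPM in L_C and 187, 200, 221 and 191 CPM in H_C (-0.69 ± 0.08, adjusted p = 2.25e-05), Mrc1, the mannose receptor, fell by 0.33 and Clec7a, the beta-glucan receptor dectin-1, by 0.54. Arg1 was at 8.76 ± 1.79 CPM in L_C and 6.85 ± 1.62 CPM in H_C (adjusted p = 0.453), and the groups overlapped.

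Erythroid and platelet markers summed to 0.396 CPM in H_C replicate 1 and to 6.39 to 7.81 CPM in the other 7 libraries.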
